A study of Mus musculus with 16 samples.

Results

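The 51 genes described here make and carry glycosaminoglycans, and they were taken by symbol from a fixed list out of 20622 genes in the total RNA tables of the series. They comprise enzymes of the linker region, of heparan sulfate and of chondroitin and dermatan sulfate, suppliers of nucleotide sugars and of activated sulfate, *Has2*, and 13 proteoglycan core proteins. The rule uses gene symbols and no measured value, but the list was chosen with earlier results of these data known. The counts set beside those of all genes below are therefore description only. Ribosome-protected fragments (RPFs, the pieces of mRNA shielded by a ribosome) and cytoplasmic total RNA were sequenced from KM_NTC and KM_4A2cr cells, with 4 libraries of each kind per line and 16 in all. The study asked how loss of eIF4A2, an RNA helicase that works with the CCR4-NOT complex in repressing translation, alters what lung tumour cells translate.

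Both lines descend from lung tumours of 1 male mouse that carried Rosa26LSL-MYC/LSL-MYC, an allele from which Cre releases MYC. The tumours had been started with an adenovirus in which the surfactant protein C promoter drives Cre. KM_4A2cr is a pool of 4 clones that lack eIF4A2 after lentiviral CRISPR, whereas KM_NTC received a non-targeting guide with the same vector and puromycin selection. Whether KM_NTC is a clone, a pool of clones or an uncloned population is not given in the sources used here, so effects of cloning and of eIF4A2 loss cannot be told apart. All cells were untreated. Replicates were separate experiments on different days, and RPFs and total RNA of 1 replicate came from the same lysate, so a pair here means the KM_NTC and KM_4A2cr libraries that share a replicate number. With 1 line per genotype, p-values measure the spread between experiments on these lines, not between independently made lines.

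Glycosaminoglycans are long chains of repeated sugar pairs, and heparan and chondroitin sulfate are built in the Golgi on serines of core proteins. A short linker that begins with xylose is shared by heparan and chondroitin sulfate, after which separate enzymes polymerise the chains, epimerise their uronic acids and add sulfate from the donor PAPS. Syndecans and glypicans hold such chains at the cell surface and agrin and perlecan hold them in basement membranes, where they bind growth factors and matrix proteins; in lung epithelium syndecan-1 lies mainly on the basolateral surface.

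RPF libraries held 4512403 to 9621848 counts and total RNA libraries 5350920 to 9312624, with replicate 4 the lowest in each of the 4 groups. Epithelial markers were abundant, and all 8 were tested, with summed total RNA of 5500 to 7150 CPM (counts scaled to the TMM-adjusted library total) in KM_NTC and 6590 to 9220 CPM in KM_4A2cr. The alveolar type II markers *Sftpc* and *Sftpb* were at 0 in every library, and the 7 markers of that cell type summed to 1.35 to 3.51 CPM in KM_NTC and 1.89 to 2.67 CPM in KM_4A2cr. The 5 leukocyte markers summed to 20.4 to 163 and 24.8 to 154 CPM, with 2 of them at 0 in every library. *Cd68*, a macrophage gene among them, stood at 19.4 to 39.4 CPM in the total RNA of replicates 1 to 3 but at 162 and 153 CPM in the KM_NTC and KM_4A2cr libraries of replicate 4, and its part in the results below was not tested. The targeted gene *Eif4a2* had 97.7, 122, 99.9 and 389 RPF CPM in KM_NTC and 50.96, 88.4, 74.8 and 346 in KM_4A2cr (log2 fold change -0.49, standard error 0.149, edgeR adjusted p = 0.0941), and its total RNA differed by -0.18 (standard error 0.128, edgeR adjusted p = 0.504). A CRISPR lesion need not remove the mRNA, so these values do not show the state of the protein.

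At the mRNA level the cells used a part of this gene list. Levels between genes were compared in TPM, a share of the library that is first divided by transcript length. *Sdc1* (syndecan-1) led with 666 ± 140 TPM in KM_NTC and 974 ± 271 TPM in KM_4A2cr (SD, n = 4), and *Sdc4* (syndecan-4) followed with 572 ± 138 and 658 ± 177 TPM. Their mean levels lay at the 98.4th and 98.0th percentiles of all genes tested in total RNA.

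Next in order came the basement membrane core protein *Agrn* (agrin, 146 ± 20.0 and 172 ± 26.9 TPM), then the chain starter *Csgalnact2* (121 ± 19.4 and 131 ± 49.7 TPM) and the epimerase *Dse* (107 ± 19.2 and 144 ± 62.6 TPM). The SDs of these neighbours overlap, as do those of most neighbours further down the order, whereas *Sdc4* lay well above *Agrn*. The enzymes that polymerise and modify heparan sulfate spread from 97.2 TPM (*Ext2*) to 6.38 TPM (*Ndst2*) over all 8 libraries. The glypican *Gpc1* had 31.1 ± 8.96 and 50.7 ± 23.9 TPM. Further core proteins were scarce in total RNA, with *Hspg2* (perlecan) at 5.81 ± 1.80 and 5.16 ± 1.21 TPM, and *Sdc3* (syndecan-3) at 0.738 ± 0.269 and 1.39 ± 0.195 TPM. In RPFs *Hspg2* had 920 ± 524 CPM in KM_NTC and 922 ± 375 CPM in KM_4A2cr. Its total RNA had 47.1 ± 15.8 and 45.9 ± 0.44 CPM. These CPM values are not divided by length, so they do not rank *Hspg2* among the members.

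**Figure D1:**
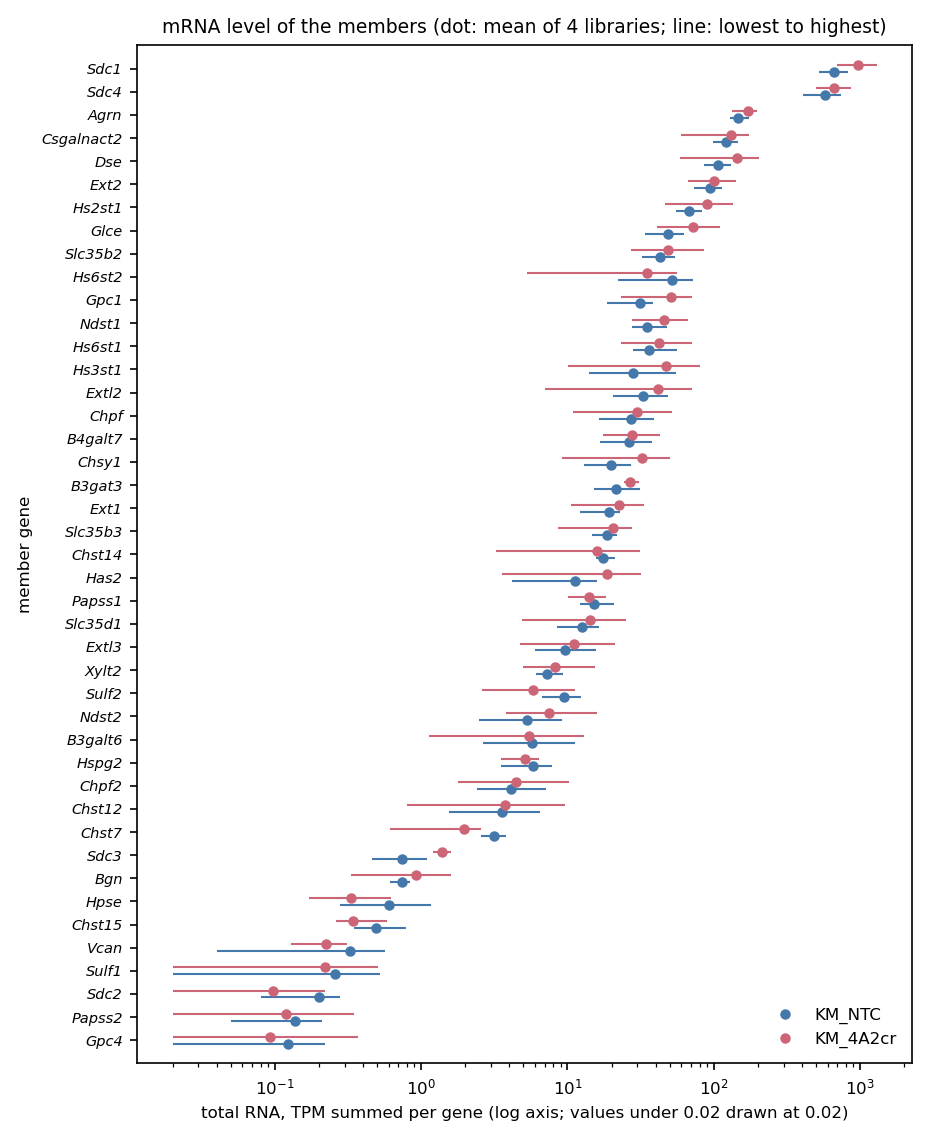
Total RNA of each member with a mean of at least 0.1 TPM over the 8 libraries, on a log axis in TPM, with KM_NTC in blue and KM_4A2cr in red; dots are means of 4 libraries and lines run from the lowest to the highest library. *Sdc1* and *Sdc4* stand at the top, and the scarcest members drawn reach 0 in some libraries.

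Of the 51 members, 37 had enough RPFs to be tested and 14 did not. The 14 were *Xylt1*, *Chst3* and *Ust*, with 0 RPF counts, *Csgalnact1*, *Gpc6*, *Cspg4* and *Dcn*, which no RPF table lists, and *Chst11* (1 count), *Papss2* (5), *Sdc2* (38), *Chst15* (43), *Gpc4* (51), *Hpse* (55) and *Vcan* (74), all summed over 8 libraries. A sum of 3 counts over the 8 RPF libraries equals 0.0511 CPM, which is the limit that a count of 0 allows, for counting error only. In total RNA *Csgalnact1*, *Ust* and *Dcn* (decorin) had 0 counts, and *Sulf1* and *Bgn* (biglycan) joined the untested members with 36 and 60 counts.

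In RPFs, 13 of the 37 tested members were higher in KM_4A2cr than in KM_NTC and 0 were lower (a Benjamini-Hochberg adjusted p under 0.1 by the quasi-likelihood test of edgeR, blocked by replicate). Among all 10291 tested genes 6.60% were higher and 3.72% lower. The 13 were the core proteins *Gpc1*, *Agrn* and *Sdc1*, the heparan sulfate enzymes *Extl3*, *Ndst1*, *Glce*, *Hs2st1*, *Hs3st1* and *Hs6st1*, the chondroitin sulfate enzymes *Chsy1* and *Csgalnact2*, and the PAPS transporters *Slc35b2* and *Slc35b3*. The median log2 fold change of the 37 was 0.39, against -0.01 over all tested genes, and 29 of the 37 (78.4%) lay above 0, against 48.9% of all genes. In whole-culture samples such as these, fewer cells of a kind and less RNA per cell cannot be told apart.

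The count depends on single replicates. Without replicate 4, 23 of 39 tested members were higher and 1 was lower, where 19.1% of all genes were higher and 14.3% lower, and all 13 calls were kept. The 1 lower was *Gpc4*, which passed the filter only through its KM_NTC counts, so that call is not read as a fall. Without replicate 1 or replicate 2 only *Gpc1* was higher. Without replicate 3 no member of 36 passed by edgeR, where 13 were higher and 0 lower at an unadjusted p under 0.05. Shares of all genes are not given here for these fits. The counts therefore do not show whether the loss of calls is particular to the members. Without the replicate block no member passed either, with 3 higher at an unadjusted p under 0.05. The share of all genes is not given here for that fit. In the fit of all replicates 18 members were higher and 2, *Sulf2* and *Hs6st2*, lower at an unadjusted p under 0.05. DESeq2 called 16 higher and 0 lower. Shares of all genes are not given here for the unadjusted counts or for DESeq2. *Extl3* lost its call with DESeq2, with upper-quartile factors and with library size as the only scaling, which also ended the calls of *Glce* and *Hs6st1*. In no member did all 4 KM_4A2cr libraries lie above all 4 KM_NTC libraries, which held for 0.981% of all tested genes.

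**Figure D2:**
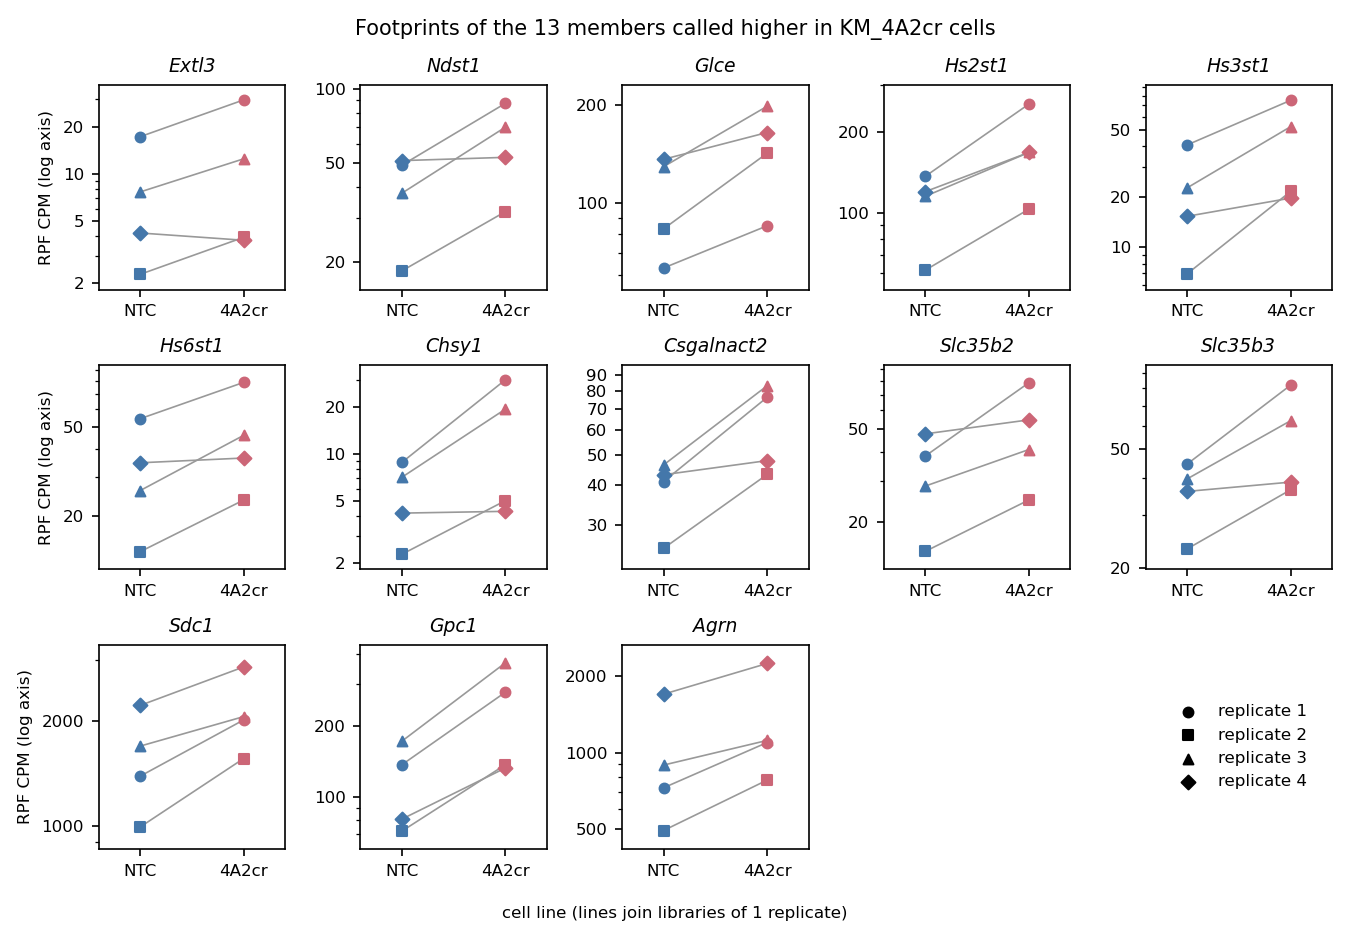
RPF level of the 13 members called higher, in CPM on log axes that differ between panels, with KM_NTC in blue and KM_4A2cr in red; lines join the libraries of 1 replicate and symbols mark the replicate. Within pairs the level rises in KM_4A2cr, except for *Extl3* in replicate 4, while the ranges of the lines overlap.

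The core protein with the smallest adjusted p was *Gpc1* (glypican-1), which a lipid anchor holds on the outer face of the plasma membrane. Its RPF CPM were 137, 72.1, 172 and 81.0 in KM_NTC replicates 1 to 4 and 277, 137, 369 and 133 in KM_4A2cr. KM_4A2cr was the higher line in all 4 pairs, but its replicates 2 and 4 fell among the KM_NTC values. The log2 fold change was 0.94 (standard error 0.126, edgeR adjusted p = 0.00789).

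*Agrn*, whose product organises basement membranes and the neuromuscular synapse, had 728, 495, 894 and 1696 RPF CPM in KM_NTC and 1096, 781, 1117 and 2238 in KM_4A2cr. Every pair rose, by log2 differences of 0.59, 0.66, 0.32 and 0.40, and the lines overlapped, with replicate 4 the highest in each. Fitted over the replicates, the log2 fold change was 0.49 (standard error 0.124, edgeR adjusted p = 0.0619).

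*Sdc1*, a transmembrane core protein of epithelia, had 1390, 992, 1697 and 2223 RPF CPM in KM_NTC and 2019, 1563, 2064 and 2870 in KM_4A2cr. It too was higher in each pair, with overlapping ranges, and the log2 fold change was 0.46 (standard error 0.127, edgeR adjusted p = 0.0769).

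The other syndecans did not pass. *Sdc3* had 8.51, 4.27, 4.79 and 29.8 RPF CPM in KM_NTC and 26.0, 13.4, 25.4 and 21.0 in KM_4A2cr. It was the more abundant in KM_4A2cr in replicates 1 to 3, by 1.58, 1.59 and 2.34 on the log2 scale, and the less abundant in replicate 4, by -0.50. Its log2 fold change of 1.25 had a standard error of 0.39 and an edgeR adjusted p of 0.101, just outside the threshold, and without replicate 4 it was 1.86 (standard error 0.184, edgeR adjusted p = 4.2e-05). *Sdc4* differed by 0.25, *Hspg2* by 0.08 and *Bgn* by -0.06, a sign that turned without replicate 4 (0.11).

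*Gpc4* (glypican-4) was too scarce for the test across all replicates. It had 44 RPF counts in KM_NTC and 7 in KM_4A2cr, or 1.54, 1.09, 1.37 and 1.26 CPM against 0.242, 0, 0.702 and 0 CPM. All 4 KM_4A2cr libraries lay below all 4 KM_NTC libraries, but at counts this near the floor that is not read as a fall. Such a split held for 1.15% of tested genes and 0 of the 37 tested members, sets that leave *Gpc4* out. No test is given for *Gpc4*, since it reached the filter only without replicate 4, and there only through its KM_NTC counts. Its total RNA held 5 and 3 counts, too few to compare.

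Upstream sequence is shown for the called core proteins *Agrn* and *Sdc1* and for *Sdc4*, the uncalled core protein with the highest RPF CPM, so that their letters can be read beside their values. No RefSeq promoter was at hand for the called core protein *Gpc1*, so none is shown. The 250 bases before the RefSeq start site (GRCm38.p6) are given 5′ to 3′, with capitals marking the GC box, GGGCGG or its reverse complement CCGCCC, and with overlapping copies counted separately.
*Agrn*, chr4:156197489-156197738, minus strand: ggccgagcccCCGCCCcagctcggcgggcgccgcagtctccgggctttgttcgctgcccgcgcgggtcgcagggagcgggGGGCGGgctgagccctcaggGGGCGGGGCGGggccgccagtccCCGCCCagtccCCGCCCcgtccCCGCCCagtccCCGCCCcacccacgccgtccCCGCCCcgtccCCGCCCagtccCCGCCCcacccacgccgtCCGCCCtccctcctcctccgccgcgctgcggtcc
*Sdc1*, chr12:8771146-8771395, plus strand: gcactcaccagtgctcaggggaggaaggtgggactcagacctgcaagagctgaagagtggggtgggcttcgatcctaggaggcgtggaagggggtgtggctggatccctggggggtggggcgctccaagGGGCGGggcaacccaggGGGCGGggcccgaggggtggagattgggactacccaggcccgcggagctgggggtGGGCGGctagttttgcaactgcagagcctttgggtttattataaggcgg
*Sdc4*, chr2:164443189-164443438, minus strand: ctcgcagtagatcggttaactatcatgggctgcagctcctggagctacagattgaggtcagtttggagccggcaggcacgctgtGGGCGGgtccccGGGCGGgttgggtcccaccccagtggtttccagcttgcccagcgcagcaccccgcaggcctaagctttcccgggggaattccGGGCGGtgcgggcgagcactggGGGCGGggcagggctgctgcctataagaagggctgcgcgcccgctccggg

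*Agrn* held 12 GC boxes before this start and 2 before another start, *Sdc1* held 3 and *Sdc4* held 4. Of the members, 40 had a promoter in the RefSeq table, and 31 of these were tested in RPFs. A GC box was found before at least 1 start of 23 of those 31 (74.2%), against 67.0% of 8194 genes tested in RPFs, and of 8 of the 10 called members. The letters of the E-box CACGTG, searched as the motif that MYC dimers can bind, were before none of these 3 genes and before 4 of the 31 tested members (12.9%), against 10.4% of genes tested in RPFs. *Agrn* and *Sdc1*, called in RPFs, and *Sdc4*, not called, thus shared the GC box in this window. These matches describe letters only, and binding was not measured.

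Among the linker enzymes 0 of 4 tested members passed in RPFs, with a median log2 fold change of 0.15. *Xylt2*, which adds the first xylose, differed by 0.17, and the galactosyltransferases *B4galt7* and *B3galt6* by 0.13 and 0.09. *B3gat3*, which closes the linker with glucuronic acid, had 14.1, 15.1, 23.3 and 43.9 RPF CPM in KM_NTC and 32.1, 21.3, 36.8 and 44.4 in KM_4A2cr. Its log2 fold change of 0.59 (standard error 0.184) had an edgeR adjusted p of 0.101, the other value just outside the threshold.

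All 4 enzymes of heparan sulfate polymerisation lay above 0 in RPFs, and 1 passed. *Extl3*, which commits the linker to heparan sulfate by adding the first N-acetylglucosamine, had 17.3, 2.28, 7.67 and 4.20 RPF CPM in KM_NTC and 29.7, 3.94, 12.5 and 3.77 in KM_4A2cr. Replicates 1 to 3 were higher in KM_4A2cr and replicate 4 was not, and the spread between experiments exceeded that between lines. The log2 fold change was 0.63 (standard error 0.188, edgeR adjusted p = 0.0932), the weakest call of the 13. *Ext1* and *Ext2*, which together form the polymerase, differed by 0.39 and 0.34, and *Extl2* by 0.31 with a pair 4 difference of -1.52.

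The modification of heparan sulfate held the most calls, with 5 of 7 enzymes higher and a median log2 fold change of 0.60. *Ndst1*, which replaces N-acetyl by N-sulfate groups and so sets where later enzymes act, had 49.1, 18.4, 37.8 and 51.2 RPF CPM in KM_NTC and 87.2, 31.9, 69.9 and 52.8 in KM_4A2cr. Its pairs 1 to 3 differed by 0.79 to 0.88 on the log2 scale and pair 4 by 0.04. The log2 fold change was 0.65 (standard error 0.164, edgeR adjusted p = 0.0621), and its relative *Ndst2* differed by 0.60 without passing.

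*Glce*, the epimerase that turns glucuronic into iduronic acid, had 63.0, 83.1, 129 and 136 RPF CPM in KM_NTC and 84.9, 142, 198 and 164 in KM_4A2cr. All 4 pairs rose and the ranges overlapped, and the fitted log2 difference was 0.53 (standard error 0.132, edgeR adjusted p = 0.0605). *Hs2st1*, which sulfates those uronic acids, had 137, 61.3, 116 and 120 RPF CPM in KM_NTC and 255, 103, 168 and 168 in KM_4A2cr. It rose in each pair by at least 0.48, and 3 of its 4 KM_4A2cr libraries lay above every KM_NTC library. Its log2 fold change was 0.67 (standard error 0.128, edgeR adjusted p = 0.0243).

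*Hs3st1*, which adds the rare sulfate that makes an antithrombin-binding site, had 40.7, 6.95, 22.6 and 15.3 RPF CPM in KM_NTC and 75.1, 21.5, 52.3 and 19.7 in KM_4A2cr. All 4 pairs rose, pair 2 the most at 1.59 and pair 4 the least at 0.35. Its fitted log2 fold change was 1.03 (standard error 0.191, edgeR adjusted p = 0.022). *Hs6st1*, a glucosamine sulfotransferase, had 54.4, 13.9, 26.0 and 34.6 RPF CPM in KM_NTC and 79.0, 23.6, 45.9 and 36.4 in KM_4A2cr. Its pair 4 was nearly level at 0.07, and the log2 fold change was 0.55 (standard error 0.154, edgeR adjusted p = 0.0781).

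The paralogue *Hs6st2* went the other way without passing in RPFs, at a log2 fold change of -0.62 (standard error 0.267, edgeR adjusted p = 0.205). Its RPF CPM were 95.9, 70.8, 127 and 63.6 in KM_NTC and 98.4, 62.0, 78.6 and 17.0 in KM_4A2cr. Replicate 1 was level, and replicate 4 carried the largest difference, -1.89. Of the sulfatases that trim sulfate from finished chains outside the cell, *Sulf1* differed by -0.19 and *Sulf2* by -0.55 in RPFs.

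In chondroitin sulfate polymerisation 2 of 4 tested enzymes were higher. *Chsy1*, a polymerase subunit, had 8.87, 2.28, 7.12 and 4.20 RPF CPM in KM_NTC and 30.1, 5.04, 19.5 and 4.31 in KM_4A2cr. Its replicates 1 and 3 stood above every KM_NTC library, replicate 4 differed by 0.04, and the log2 fold change of 1.298 (standard error 0.245, edgeR adjusted p = 0.0228) exceeded that of every other called member. *Chpf* and *Chpf2*, its partners in the polymerase, differed by -0.14 and 0.00, and without replicate 4 by 0.03 and 0.23.

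*Csgalnact2*, which begins the chondroitin chain with N-acetylgalactosamine, had 41.1, 25.2, 46.4 and 43.2 RPF CPM in KM_NTC and 76.2, 43.3, 82.9 and 47.9 in KM_4A2cr. Replicates 1, 3 and 4 of KM_4A2cr lay above all KM_NTC libraries, and replicate 2 fell among them, for a log2 fold change of 0.68 (standard error 0.153, edgeR adjusted p = 0.0428). Of the enzymes that then sulfate or epimerise chondroitin, 0 of 4 tested passed and the median was -0.09, with *Dse* at 0.58, *Chst12* at 0.08, *Chst14* at -0.26 and *Chst7* at -0.42. *Chst14* turned to 0.24 without replicate 4.

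Both carriers that bring PAPS into the Golgi were higher. *Slc35b2* had 38.3, 15.0, 28.5 and 47.6 RPF CPM in KM_NTC and 78.7, 24.9, 40.8 and 54.7 in KM_4A2cr, a fitted log2 difference of 0.63 (standard error 0.158, edgeR adjusted p = 0.0605). *Slc35b3* had 44.5, 23.1, 39.7 and 36.1 RPF CPM in KM_NTC and 82.0, 36.5, 62.3 and 38.8 in KM_4A2cr, a fitted log2 difference of 0.59 (standard error 0.151, edgeR adjusted p = 0.0642). Each rose in all 4 pairs, with the lines overlapping and pair 4 the least changed. *Papss1*, which makes PAPS, differed by -0.15, and *Slc35d1*, a nucleotide sugar carrier, by 0.17.

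*Has2*, which spins hyaluronan out through the plasma membrane without a core protein, had 33.4, 5.46, 14.5 and 28.7 RPF CPM in KM_NTC and 71.4, 16.0, 45.2 and 15.6 in KM_4A2cr. Its pairs 1 to 3 differed by 1.09, 1.51 and 1.62 on the log2 scale and pair 4 by -0.87. It did not pass with all replicates (log2 fold change 0.91, standard error 0.351, edgeR adjusted p = 0.162) and passed without replicate 4 (1.38, standard error 0.145, edgeR adjusted p = 5.69e-05).

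The same split ran through the list. Pairs 1, 2 and 3 had member medians of 0.65, 0.65 and 0.35 on the log2 scale, and pair 4 had a median of -0.20, while the medians of all tested genes stayed between -0.06 and 0.02. Pair 4 was the lowest of the 4 pairs for 32 of 37 members, against 39.0% of all tested genes. Of the members 13 lay above 0 in all 4 pairs (14.1% of all genes did), and 12 lay above 0 in pairs 1 to 3 and below 0 in pair 4 (13.0% of all genes did). The total RNA of the members showed 0 without overlap (0.938% of all genes), 13 of 35 above 0 in all 4 pairs (12.4%), 13 above 0 in pairs 1 to 3 and below 0 in pair 4 (13.6%), and pair 4 as the lowest for 29 (36.7%). In RPFs of pair 4 the median of the 4 tested chondroitin and dermatan sulfate modifiers was -1.08, with *Chst14* at -2.04 and *Chst7* at -1.49, whereas that of the 4 tested surface core proteins was 0.14. Replicate 4 is also the shallowest, and the one with the high *Cd68*, and the part of either in this split was not tested.

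**Figure D3:**
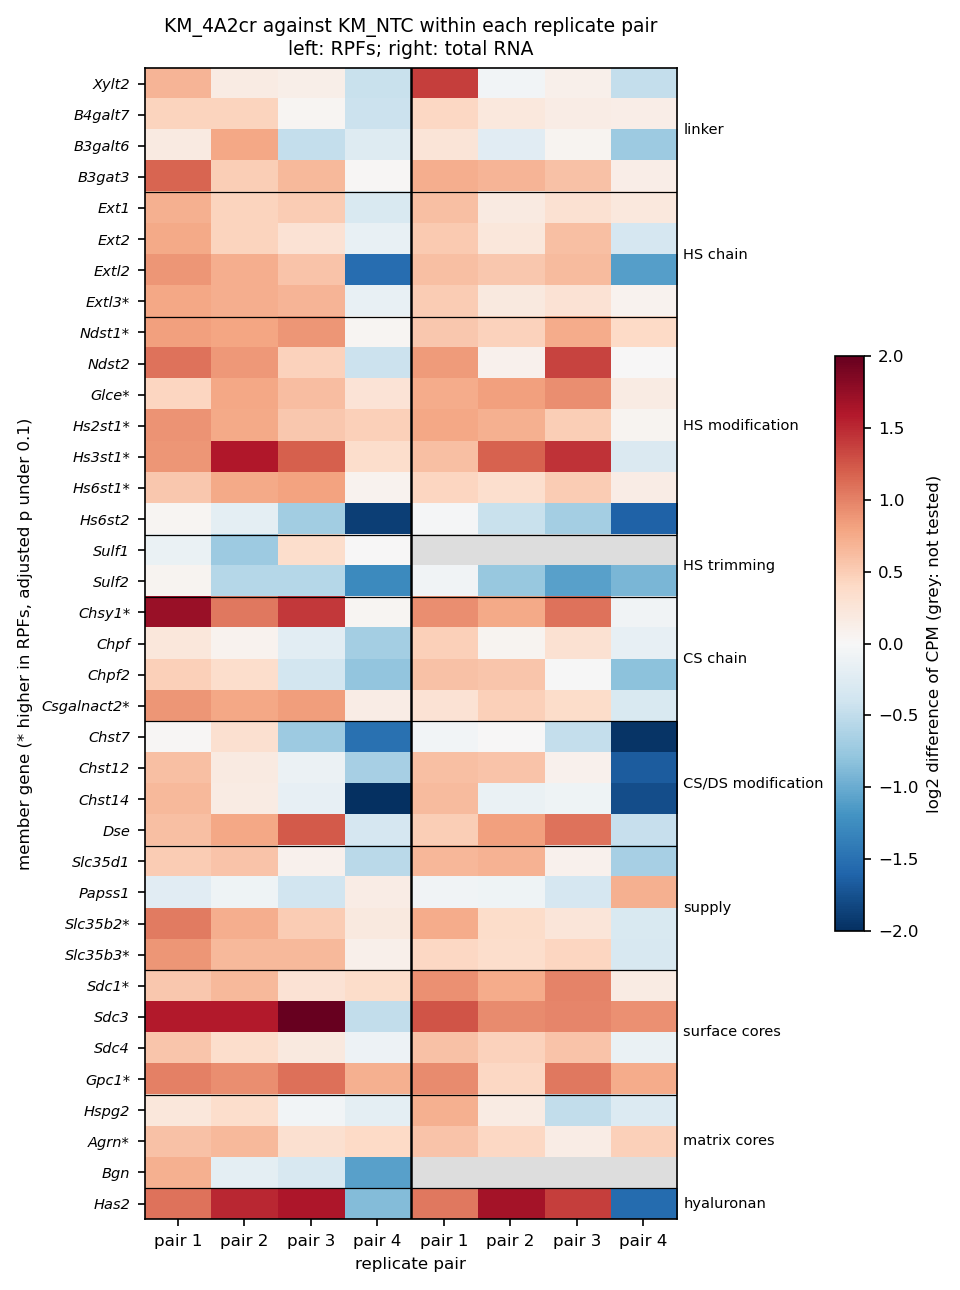
Log2 difference of CPM, KM_4A2cr against KM_NTC, within each replicate pair (columns) for the members tested in either kind of library (rows, by role, with HS for heparan, CS for chondroitin and DS for dermatan sulfate); red is higher in KM_4A2cr, blue lower, grey not tested. Pairs 1 to 3 are mostly red and pair 4 is mixed, in RPFs and in total RNA.

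In total RNA, 8 of 35 tested members were higher and 1 was lower, against 4.35% higher and 1.78% lower among 10880 genes. Without replicate 4 the counts were 26 higher and 2 lower of 36, against 17.8% and 12.0%, and without replicate 3 no member passed by edgeR, where 8 were higher and 2 lower at an unadjusted p under 0.05. Without the replicate block none passed, with 4 higher at an unadjusted p under 0.05. Upper-quartile factors left 4 higher, with the calls of *B3gat3*, *Chsy1*, *Hs3st1* and *Sdc1* lost. With library size as the only scaling 3 were higher and 2 lower, *Ndst1* was lost as well, and the all-gene calls turned from 473 higher and 194 lower to 262 and 868. Without replicate 2 the only call was *Gpc1*, and without replicate 1 *Gpc1* was higher and *Sulf2* lower. For the fits without the block or without replicate 1, 2 or 3, shares of all genes are not given here. The counts of those fits therefore do not show whether the loss of calls is particular to the members. The median log2 fold change was 0.28, against 0.01 over all genes, 30 of 35 members (85.7%) lay above 0, against 51.6% of all genes, and pair 4 again had a median below 0, at -0.27.

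*Gpc1* was higher in total RNA as well, with 86.7, 59.4, 84.5 and 51.5 CPM in KM_NTC and 167, 78.9, 176 and 86.4 in KM_4A2cr (log2 fold change 0.79, standard error 0.138, edgeR adjusted p = 0.0142). *Sdc1* had 1227, 745, 1007 and 1729 CPM in KM_NTC and 2300, 1252, 2008 and 1944 in KM_4A2cr (0.71, standard error 0.195, edgeR adjusted p = 0.0842). Both rose in every pair, and 3 of the 4 KM_4A2cr libraries of *Sdc1* lay above all KM_NTC libraries.

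*Sdc3* passed here though not in RPFs. Its total RNA was scarce, at 1.26, 1.44, 2.16 and 3.64 CPM in KM_NTC and 3.43, 3.05, 4.54 and 7.15 in KM_4A2cr. Each pair rose by 0.92 to 1.26 on the log2 scale, replicate 4 included, and the log2 fold change was 1.11 (standard error 0.234, edgeR adjusted p = 0.0336).

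Of the heparan sulfate enzymes, *Glce* had 89.6, 114, 167 and 159 CPM of total RNA in KM_NTC and 151, 202, 320 and 179 in KM_4A2cr (log2 fold change 0.67, standard error 0.151, edgeR adjusted p = 0.0424). *Ndst1* had 159, 87.4, 106 and 113 CPM in KM_NTC and 230, 120, 177 and 149 in KM_4A2cr (0.54, standard error 0.123, edgeR adjusted p = 0.0456). Every pair of these epimerase and N-sulfation genes rose, with overlapping ranges. *Hs3st1* had 47.4, 10.3, 23.4 and 17.4 CPM in KM_NTC and 72.4, 23.7, 64.2 and 14.3 in KM_4A2cr, and unlike its RPFs its pair 4 fell below 0, at -0.28 (0.80, standard error 0.233, edgeR adjusted p = 0.0967).

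*Chsy1* had 62.0, 37.0, 45.7 and 36.2 CPM of total RNA in KM_NTC and 118, 62.7, 97.0 and 34.3 in KM_4A2cr (log2 fold change 0.70, standard error 0.179, edgeR adjusted p = 0.0665). All but replicate 4 of KM_4A2cr lay above every KM_NTC library. *B3gat3* had 12.3, 11.6, 18.0 and 31.2 CPM in KM_NTC and 20.6, 18.8, 27.3 and 34.3 in KM_4A2cr, a rise in each pair (0.54, standard error 0.147, edgeR adjusted p = 0.0826).

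*Sulf2* was the 1 member with lower total RNA. It had 27.2, 16.6, 23.3 and 18.0 CPM in KM_NTC and 26.0, 9.67, 10.8 and 9.45 in KM_4A2cr, so that replicate 1 was level and replicates 2 to 4 lay below every KM_NTC library. The log2 fold change was -0.68 (standard error 0.185, edgeR adjusted p = 0.081). *Sulf2* lies on chromosome 2, whose 894 tested genes had a median of -0.17 in total RNA and held 24.7% of all lower calls but 8.22% of tested genes. The part of this in the *Sulf2* value was not tested. The other 3 members tested on this chromosome differed by 0.25 (*Ext2*), 0.37 (*Sdc4*) and -0.20 (*Chst14*, or 0.17 without replicate 4).

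RPFs and total RNA were compared within the same lysates. Of the 13 members called in RPFs, 6 were also called in total RNA (*Gpc1*, *Sdc1*, *Ndst1*, *Glce*, *Hs3st1* and *Chsy1*), and all 13 had a total RNA log2 fold change above 0. The 7 others, *Agrn*, *Extl3*, *Hs2st1*, *Hs6st1*, *Csgalnact2*, *Slc35b2* and *Slc35b3*, ranged in total RNA from 0.21 to 0.51. Passing in 1 kind of library and not in the other does not show that the kinds differ, so the difference itself, the change in translational efficiency (TE), was tested as an interaction over all 16 libraries.

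In TE, 1 of 35 members was higher and 0 were lower by edgeR, against 1.87% higher and 1.00% lower of 9989 genes, and 25 of 35 (71.4%) lay above 0, against 47.4% of all genes. At an unadjusted p under 0.05, 4 were higher and 2 lower, with no share of all genes given here. The median was 0.08, against -0.02. The member that passed was *Csgalnact2*, whose TE log2 fold change was 0.46 (standard error 0.101, edgeR adjusted p = 0.0291). Its total RNA, at 242, 194, 291 and 239 CPM in KM_NTC and 296, 269, 375 and 194 in KM_4A2cr, differed by 0.21 (standard error 0.155, edgeR adjusted p = 0.524), and its RPFs exceeded that change in each replicate. Without replicate 1, 2 or 3 this call was lost, and without replicate 4 there were 2 members higher and 1 lower of 36, against 5.04% and 2.90% of all genes.

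*Chsy1* had the largest TE log2 fold change among the members, 0.54 (standard error 0.165), but an edgeR adjusted p of 0.106, and without replicate 4 it passed (0.62, standard error 0.167, edgeR adjusted p = 0.0199). *Slc35b2* and *Slc35b3* each differed by 0.35 in TE, *Extl3* by 0.31 and *Gpc1* by 0.16, with none passing. Of the members below 0, the lowest were *Chpf* at -0.30 and *Sdc1* at -0.24. The total RNA of *Sdc1* differed by more than its RPFs, and without replicate 4 *Sdc1* was lower in TE (-0.37, standard error 0.085, edgeR adjusted p = 0.00523).

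**Figure D4:**
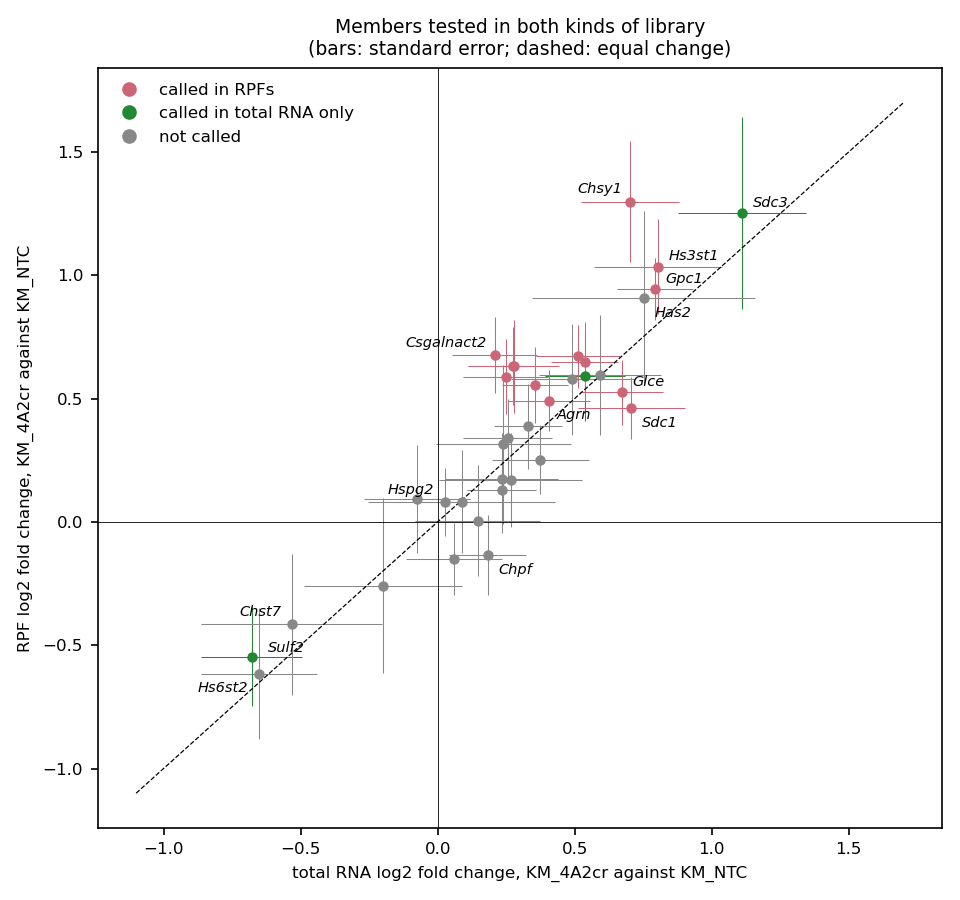
RPF log2 fold change (vertical) against total RNA log2 fold change (horizontal) for the 35 members tested in both, with bars of 1 standard error and a dashed line of equal change; red members were called in RPFs and green members in total RNA only. *Chsy1* and *Csgalnact2* lie furthest above the line, at 1.298 against 0.703 and 0.677 against 0.209.

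The members also differed in how many footprints they held per mRNA. As a median over the 8 lysates the ratio of RPF CPM to total RNA CPM was lowest for *Chsy1* (0.134), *Csgalnact2* (0.175) and *Extl3* (0.217), at the 3.23rd, 5.40th and 7.70th percentiles of all genes tested in both. *Chsy1* and *Csgalnact2* are also the members with the highest TE log2 fold changes, which rest on the same libraries. At the other end *Hspg2* had a ratio of 17.2 (12.0 to 31.3 over lysates) at the 99.9th percentile, with 474 to 1656 RPF CPM beside 27.9 to 63.6 CPM of total RNA. RPFs were counted over coding sequence and total RNA over whole transcripts, so the ratio also rises with the coding share of a transcript, and coding lengths were not used here.

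Genes of the wider pathway were counted from 4 lists, also chosen with earlier results of these data known. Among all tested genes 6.60% were higher in RPFs, 4.35% in total RNA and 1.87% in TE. The shares of lower genes were 3.72%, 1.78% and 1.00%. Of 22 other synthesis enzymes 5 were tested in RPFs and 3 were higher. *Has3*, another hyaluronan synthase, rose from 3.71, 0.397, 0.959 and 2.10 RPF CPM to 16.5, 2.71, 9.54 and 4.04 (log2 fold change 2.27, standard error 0.317, edgeR adjusted p = 0.00859), and every pair was higher. *Pxylp1*, which removes phosphate from the linker xylose, rose by 1.54 on the log2 scale (standard error 0.232, edgeR adjusted p = 0.0118), and *Chsy3*, a chondroitin polymerase, by 0.90 (standard error 0.188, edgeR adjusted p = 0.0324). The RPFs of *Pxylp1* stood at 18.9 and 74.6 CPM in replicate 4, against 1.45 to 2.74 and 4.18 to 4.71 in replicates 1 to 3. In total RNA *Pxylp1* and *Has3* were higher as well, by 1.47 and 2.28.

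Of 13 genes of precursor supply 12 were tested and 4 were higher in RPFs. They were the sulfate importer *Slc26a2* (0.87, edgeR adjusted p = 0.0118), the UDP-N-acetylglucosamine carrier *Slc35a3* (0.92, edgeR adjusted p = 0.0228), *Impad1* (0.46, edgeR adjusted p = 0.0867), which clears the product PAP left by sulfation, and *Uxs1* (0.57, edgeR adjusted p = 0.0991), which makes UDP-xylose. *Slc35a3* was higher in TE as well, at 0.44 (standard error 0.097, edgeR adjusted p = 0.0296). In total RNA *Slc26a2* alone of this list was higher (0.86, edgeR adjusted p = 0.0129).

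Of 26 other core and hyaluronan-binding proteins only 6 were tested, and *Col18a1*, a basement membrane collagen with heparan sulfate chains, was higher in RPFs (0.80, standard error 0.132, edgeR adjusted p = 0.0153) and in total RNA (0.81, edgeR adjusted p = 0.0121). *Nrp1* was lower in total RNA (-0.93, edgeR adjusted p = 0.062), and *Acan* was lower in TE (-0.40, edgeR adjusted p = 0.0551). All 17 genes of breakdown were tested in RPFs, and 3 were higher. These were *Hexa* (1.60, standard error 0.152, edgeR adjusted p = 0.002) and *Hgsnat* (0.61, edgeR adjusted p = 0.0478), which take chains apart in lysosomes, and *Cemip* (1.58, edgeR adjusted p = 0.0467), which is needed to break down hyaluronan. In total RNA *Hexa*, *Hgsnat*, *Arsb* and *Hyal1* were higher, or 4 of 16, with log2 fold changes of 1.61, 0.61, 0.66 and 0.70. *Hexa* stood at 533 and 1167 RPF CPM in replicate 4, against 36.4 to 58.1 and 131 to 197 in replicates 1 to 3.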

How the data were processed

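The RPF files deposited by the authors hold counts, as whole numbers for each transcript: reads were trimmed with Cutadapt 1.18, aligned with BBmap to the most abundant GENCODE vM27 transcript of each gene, collapsed by UMI-tools 1.0.1, and, at lengths of 28 to 33 nt, assigned to the coding sequence, leaving out 20 codons at its start and 10 at its end. The total RNA files deposited by the authors hold expected counts and TPM per isoform from RSEM 1.3.3, following alignment by Bowtie2 2.3.5.1. These version numbers come from the submitters' processing notes.

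Expected counts were summed per gene and rounded. R 4.3.3 with edgeR 4.0.16 (filterByExpr, TMM, glmQLFit, glmQLFTest) tested cell line with replicate as a block, and TE as the interaction of line and kind of library; adjusted p-values were computed by Benjamini-Hochberg over every tested gene and called under 0.1. DESeq2 1.42.0 was an alternative. RPFs and total RNA were scaled separately, so a change of all footprints leaves no trace.

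Replicate numbers pair the libraries: deviations from line means correlated at 0.575 to 0.782 within each number. The members and gene lists were chosen with earlier results of these data known. By rule, members with an adjusted p under 0.1 are given in every library, the others by fold change, and genes of other lists only where called; the library values of *Sdc3*, *B3gat3*, *Hs6st2*, *Has2* and *Gpc4* in RPFs and of *Csgalnact2* in total RNA were added after their values were seen. The tests were first tried on simulated data. There, 12.1% of the calls in RPFs, 10.3% in total RNA and 11.5% in TE fell on unchanged genes, slightly above the 0.1 threshold. Each replicate was left out in turn, and other scalings, filters and thresholds, the RPF isoform alone and a fit with no block were tried. RPF levels per length were planned and are not given, since coding lengths were not used here; protein sequences were not used here. Coordinates are given only for RefSeq promoters of GRCm38.p6. Part of the genotype that both lines share is not reported here.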

Additional observations from a re-analysis of the deposited data

Results flagged for a closer look

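*Sulf2* had 26.0 CPM of total RNA in KM_4A2cr replicate 1, while the other 3 libraries of that line lay between 9.45 and 10.8 CPM. The gap to the nearest library took a share of 0.919 of the whole range, above Dixon's critical value for 4 samples. Of 44 groups of 4 libraries looked at this was the only such value, where chance gives about 1 in 20.

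*Csgalnact2* changed more in RPFs than in total RNA, by a log2 difference of 0.464 in the interaction test. The change was larger in RPFs in 4 of 4 replicates, which are the libraries of that same test. Its call was lost without replicate 1, 2 or 3 and without the replicate block.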

How the results depend on the processing

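No called member changed direction under any alternative run. Of the uncalled members, 10 in RPFs, 7 in total RNA and 11 in TE did under at least 1, all with a log2 fold change of 0.27 or less in size over all replicates, such as *Chst14* in RPFs (-0.26, or 0.24 without replicate 4). The median log2 fold change of the members moved by less than the spread between pairs, from 0.25 to 0.50 in RPFs and 0.12 to 0.45 in total RNA. The counts of calls moved far more. Without the replicate block they were 0 higher in RPFs, 0 higher and 0 lower in total RNA, and 0 higher in TE. Leaving out each replicate in turn gave 0 to 23 higher and 0 to 1 lower in RPFs. In total RNA it gave 0 to 26 higher and 0 to 2 lower, and in TE 0 to 2 higher and 0 to 1 lower. Replicate 4 left out gave the highest counts of higher members in each. The share of all genes called higher rose there too. It went from 6.60% to 19.1% in RPFs, 4.35% to 17.8% in total RNA and 1.87% to 5.04% in TE. At a threshold of 0.05 there were 5 higher in RPFs and 4 higher and 0 lower in total RNA. Upper-quartile factors left 4 higher in total RNA, and library size alone left 2 lower in RPFs and 3 higher and 2 lower in total RNA. Without a filter on low counts 2 were lower in RPFs, 2 lower in total RNA and 2 higher in TE. DESeq2 called 2 lower in total RNA, and its size factors gave 2 higher in TE. For the alternatives in this paragraph other than leaving out replicate 4, shares of all genes are not given.

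With library size as the only scaling, the all-gene median moved by -0.14 (RPFs) and -0.16 (total RNA), and 24 of 37 and 26 of 35 members stayed above 0. It split all calls into 482 higher and 1137 lower in RPFs and 262 and 868 in total RNA, against 679 and 383, and 473 and 194, with TMM. Upper-quartile factors gave 534 and 464 in RPFs and 325 and 216 in total RNA. The cause of these changes was not tested. Of the 13 members called in RPFs, 12 kept their call with DESeq2, 12 with upper-quartile factors and 10 with library size alone. Too few RPF counts left 14 of 51 members untested, and 7 of them had 0 counts in all RPF libraries.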
